A study of Mus musculus with 6 samples.

Results

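The 10 genes described here are the Vgll cofactors Vgll1 to Vgll4, the Tead transcription factors Tead1 to Tead4, and the coactivators Yap1 and Wwtr1 (the gene of TAZ). They were picked by symbol among the 53801 genes counted in RNA from mouse maxillary prominences at embryonic day (E) 12.5, and all 10 passed the filter on low counts that left 17514 genes for testing. The set was chosen because the difference between genotypes in 1 of its genes, Vgll3, was already known. The differences between genotypes in these genes are therefore a description, given without p-values. A call among them is no independent evidence. The 6 libraries came from 3 wild-type (WT) and 3 Wnt1cre; Rosa26Dlx2/- (Dlx2OE) samples on a C57BL/6J background.

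The Dlx2OE embryos carried a CAG-LSL-Dlx2-3xFlag cassette at Rosa26, which expresses the homeobox factor Dlx2 once Cre has removed its stop, and the Wnt1-driven Cre that acts in neural crest. The WT embryos carried neither allele, so effects of Cre and of the Dlx2 cassette cannot be told apart. The dissected prominence also holds cells outside the crest, among them epithelium, endothelium, muscle precursors and blood. By the labels the RNA came from 7 littermates, while the methods of the study give another number, so how many embryos a sample holds is not known, and p-values then measure the spread between these RNA samples.

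Tead proteins bind DNA but need a partner to activate or repress genes. Yap1 and Wwtr1 are the partners controlled by the Hippo pathway, in which the kinases Stk3 and Stk4 activate Lats1 and Lats2, and these phosphorylate Yap1 and Wwtr1 and keep them out of the nucleus. Vgll proteins have no DNA-binding domain of their own and bind Tead proteins on a surface that overlaps that of Yap1. Vgll4 is known mainly as a repressor that competes with Yap1, Vgll2 as a cofactor in skeletal muscle, and Vgll3 as a cofactor studied in muscle precursors, mesenchyme and skin.

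Dlx2 itself was read first as a check of the labels. It was counted 1255, 1056 and 1409 times in WT and 3521, 4102 and 3336 times in Dlx2OE, the transgene's reads included. Every Dlx2OE library stood above every WT library, and Dlx2 rose from 41.0 ± 5.32 to 124 ± 5.96 CPM (TMM-scaled counts relative to library size, SD, n = 3), a log2 fold change of 1.60 (SE 0.118, adjusted p = 0.00241, edgeR). Library totals on genes ranged from 26155500 to 31308813 counts. Dlx2OE sample 3 stood apart, with 14.7% of its reads outside annotated genes against 5.03% to 7.81% in the others.

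The DNA just upstream of these genes was read for the hexamer GGAATG, the core letters of the sequence that Tead proteins bind, since the results below turn on Vgll3. RefSeq windows of 300 bases (250 before and 50 after a transcript start, build GRCm38.p6) were given for 8 of the 10 genes, all but Tead1 and Tead4. The letters GGAATG, on either strand (CATTCC on the other), occurred in the windows of 6 genes, Vgll1, Vgll3, Vgll4, Tead3, Yap1 and Wwtr1, and not in those of Tead2 and Vgll2. Of 32851 windows of this length in the genome, 14.7% held them, and of 27025 genes, 16.6% had them in at least 1 window. The palindrome TAATTA, core letters of many homeodomain sites, occurred in none of the 8 and in 5.29% of all windows. The letters are a description of the sequence and not evidence of binding.

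The 250 bases before the Vgll3 start, chr16:65814939-65815188 on the plus strand, are shown because Vgll3 is the gene whose level differed most. The capitals mark the match, on the strand opposite to the gene, which begins 63 bases before the start.
Vgll3: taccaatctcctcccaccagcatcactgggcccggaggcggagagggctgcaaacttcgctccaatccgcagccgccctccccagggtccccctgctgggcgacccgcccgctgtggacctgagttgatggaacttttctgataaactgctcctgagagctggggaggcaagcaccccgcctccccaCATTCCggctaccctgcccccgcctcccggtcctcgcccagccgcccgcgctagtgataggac

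The same letters in 3 other genes of the set, written 5′ to 3′ along each gene with the match in capitals, are shown to set the windows side by side. Vgll4 lies at chr6:114969266-114969299, Yap1 at chr9:8004718-8004751 and Wwtr1 at chr3:57576027-57576060, all on the minus strand.
Vgll4: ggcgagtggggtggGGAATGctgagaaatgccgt
Yap1: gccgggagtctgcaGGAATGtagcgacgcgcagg
Wwtr1: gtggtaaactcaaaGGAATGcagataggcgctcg
The matches start 82, 141 and 136 bases before the transcript start. Vgll3 is therefore not alone among these genes in holding the letters. Whether the letters bear on the level of any of these genes was not tested.

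Vgll3 (ENSMUSG00000091243, chr16:65815257-65866368, plus strand, 3 transcripts, GENCODE M21 on GRCm38) was the 1 gene of the 10 that passed the call rule, which asks for an adjusted p below 0.05 together with an absolute log2 fold change over 1. Of all tested genes, 3.12% passed that rule (4.66% with DESeq2), and 1.50% passed it as higher in Dlx2OE. Vgll3 was counted 334, 379 and 433 times in WT and 4631, 2270 and 3234 times in Dlx2OE. The genotypes did not overlap, and the lowest Dlx2OE library was 5.21 times the highest WT library after scaling. The level went from 12.6 ± 1.24 to 116 ± 42.1 CPM (SD, n = 3), a log2 fold change of 3.20 (SE 0.270) or 9.18-fold. The largest and smallest Dlx2OE values were further apart than the WT values, with a coefficient of variation of 36.3% against 9.81%.

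Among the tested genes, 0.462% had a larger absolute log2 fold change than Vgll3, and 41 of the 262 genes called higher exceeded it. Leaving out single libraries moved the estimate between 2.91 (without Dlx2OE sample 1) and 3.45 (without Dlx2OE sample 2). It was 3.18 without Dlx2OE sample 3. No exon of Vgll3 overlapped another gene in the annotation.

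The other Vgll genes did not separate by genotype. Vgll4 (ENSMUSG00000030315, chr6:114860628-114969994, minus strand) was counted 2881, 3095 and 3174 times in WT and 4246, 2974 and 2656 times in Dlx2OE, and its log2 fold change was 0.15 (SE 0.161). Only the first Dlx2OE library was above the WT range, at 143 CPM. Vgll2 (chr10:52022502-52028471) stayed near the low end, at 3.71 ± 1.01 and 3.88 ± 0.703 CPM (SD, n = 3). Vgll1 (chrX:57088106-57106540) had 14 to 36 counts in every library, or 0.81 ± 0.324 and 0.824 ± 0.385 CPM, and at this depth the standard error of its log2 fold change was 0.462. The plot of levels by sample shows these genes side by side.

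**Figure D1:**
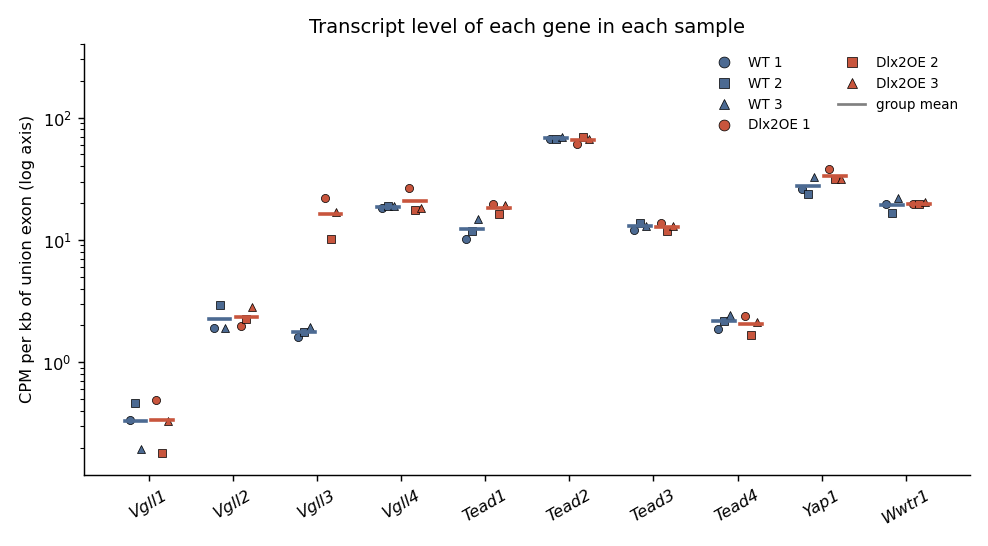
Level of each of the 10 genes in each sample, as CPM per kb of union exon on a log axis, with WT in blue, Dlx2OE in red and a line at each group mean of 3 samples. Vgll3 was at 1.61 to 1.95 in WT and 10.2 to 22 in Dlx2OE, while Tead2 lay between 61.0 and 69.6 in all 6.

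None of the Tead genes, the DNA-binding partners, passed the adjusted p in edgeR. Tead1 (ENSMUSG00000055320, chr7:112679318-112906807, plus strand) was counted 4041, 4864 and 6253 times in WT and 7833, 6893 and 7111 times in Dlx2OE. All Dlx2OE libraries were above all WT libraries, the closest pair by a factor of 1.09, and the log2 fold change was 0.58 (SE 0.154). It reached neither the adjusted p in edgeR nor the fold required for a call. DESeq2 put Tead1 past its adjusted p, as it did 12.7% of all genes, but not past the fold (0.57). Genotypes failed to overlap in 34.1% of tested genes (16.7% higher and 17.3% lower in Dlx2OE), and in 2 of these 10, Vgll3 and Tead1. With a correction for gene length and GC content the Tead1 estimate was 0.33 (SE 0.135), the widest departure among the 16 alternative fits, which ranged up to 0.72 (without WT sample 3).

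Tead2 (ENSMUSG00000030796, chr7:45215753-45233644) was the most abundant of the 10 per length and the steadiest in WT, at 319 to 332 CPM in WT and 292 to 333 CPM in Dlx2OE, a log2 fold change of -0.04 (SE 0.103). Its exons share 0.272% of their length with Cd37 on the other strand, which a count without strand cannot separate. Tead3 (chr17:28331671-28350817) had 86.8 ± 5.77 and 85.8 ± 6.38 CPM (SD, n = 3). Tead4 (chr6:128224288-128300823), known for its role in the trophectoderm of the early embryo, was low, at 7.76 ± 1.00 and 7.46 ± 1.33 CPM.

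The coactivators had overlapping levels. Yap1 (ENSMUSG00000053110, chr9:7931999-8004596, minus strand) was counted 7107, 6660 and 9481 times in WT and 10391, 9123 and 7849 times in Dlx2OE, and WT sample 3 lay above Dlx2OE samples 2 and 3 after scaling (304 against 291 and 290 CPM). Its log2 fold change was 0.28 (SE 0.149). Its exons share 1.25% of their length with Gm20416 on the other strand. Wwtr1 (chr3:57455649-57575910) had 92.9 ± 12.8 and 94.7 ± 2.17 CPM (SD, n = 3), a log2 fold change of 0.03 (SE 0.116). RNA levels do not report the phosphorylation or place in the cell through which the Hippo pathway acts on both proteins.

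**Figure D2:**
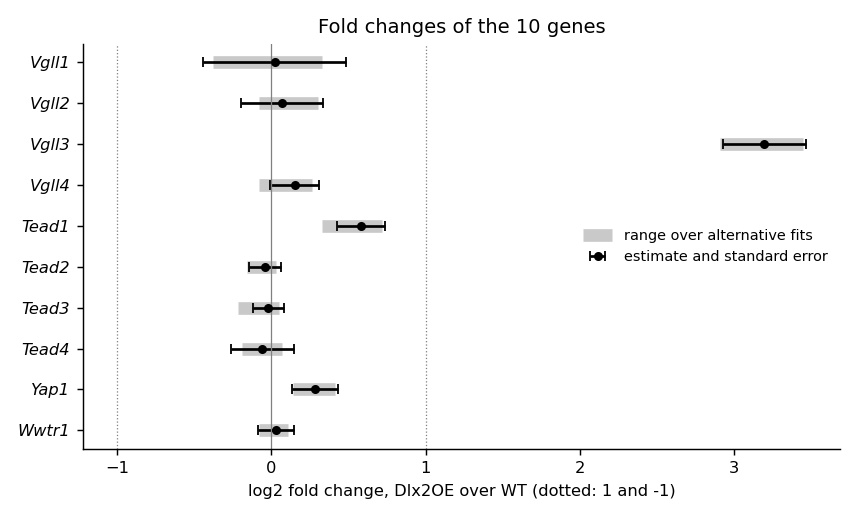
Log2 fold change of Dlx2OE over WT for each gene (points) with its standard error (bars) and the range over the alternative fits (grey), dotted lines marking 1 and -1. Vgll3 lies at 3.20 and the other 9 between -0.06 and 0.58.

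Across the 10, 7 estimates were positive and 3 negative, with a median of 0.05 where the median of all tested genes was 0.00275.

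Per kb of union exon, Tead2 stood at the top of the order in WT at 67.7 ± 1.38 CPM per kb (SD, n = 3), followed by Yap1 at 27.7 ± 4.65. Wwtr1 at 19.4 ± 2.68 and Vgll4 at 18.7 ± 0.417 overlapped, as did Tead3 at 12.9 ± 0.859 and Tead1 at 12.3 ± 2.33. The low genes were Vgll2 at 2.25, Tead4 at 2.16, Vgll3 at 1.78 and Vgll1 at 0.33. The ranges of Vgll2, Tead4 and Vgll3 overlapped in that order. In Dlx2OE, Vgll3 averaged 16.3 ± 5.93. Its range overlapped those of Vgll4 (20.8 ± 5.03), Wwtr1 (19.8 ± 0.455), Tead1 (18.3 ± 1.87) and Tead3 (12.8 ± 0.95). Ranked among all tested genes on this scale, Vgll3 moved from percentile 35.5 to 81.9, Tead1 from 75.5 to 84.2, and Tead2 from 96.5 to 96.9. The order depends on the length used. With the longest transcript of each gene in place of the union of exons, 5 of the 10 kept their place in WT and 4 in Dlx2OE.

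The makeup of the Vgll transcripts differed accordingly. Vgll3 was 7.27%, 7.31% and 8.54% of the summed Vgll level per kb in WT and 43.1%, 33.7% and 44.1% in Dlx2OE. Vgll4 went from 81.2% ± 2.25 to 52.6% ± 5.29 (SD, n = 3) while its own level overlapped, so the lower share of Vgll4 accompanies a higher sum. With longest-transcript lengths the Vgll3 share was lower in both genotypes, at 3.58% and 23.2%. The ratio of Vgll3 to Vgll4 was 0.0881, 0.093 and 0.104 in WT and 0.828, 0.58 and 0.925 in Dlx2OE. With longest-transcript lengths its means were 0.0392 and 0.321.

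The summed Vgll level was 22.1, 24.2 and 22.9 CPM per kb in WT and 51.0, 30.2 and 38.1 in Dlx2OE. The summed Tead level changed little beside it, from 95.1 ± 4.11 to 99.0 ± 2.37, and within it the Tead1 share was 12.9% ± 1.87 and 18.5% ± 2.0. The summed Yap1 and Wwtr1 level was 47.1 ± 7.2 and 53.4 ± 3.5. Set against these coactivators, the Vgll sum gave ratios of 0.479, 0.599 and 0.418 in WT and 0.89, 0.591 and 0.738 in Dlx2OE, so WT sample 2 was above Dlx2OE sample 2 and the genotypes overlapped. The means of this ratio were 0.499 ± 0.0917 in WT and 0.74 ± 0.149 in Dlx2OE (SD, n = 3), and 0.751 and 0.882 with longest-transcript lengths.

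**Figure D3:**
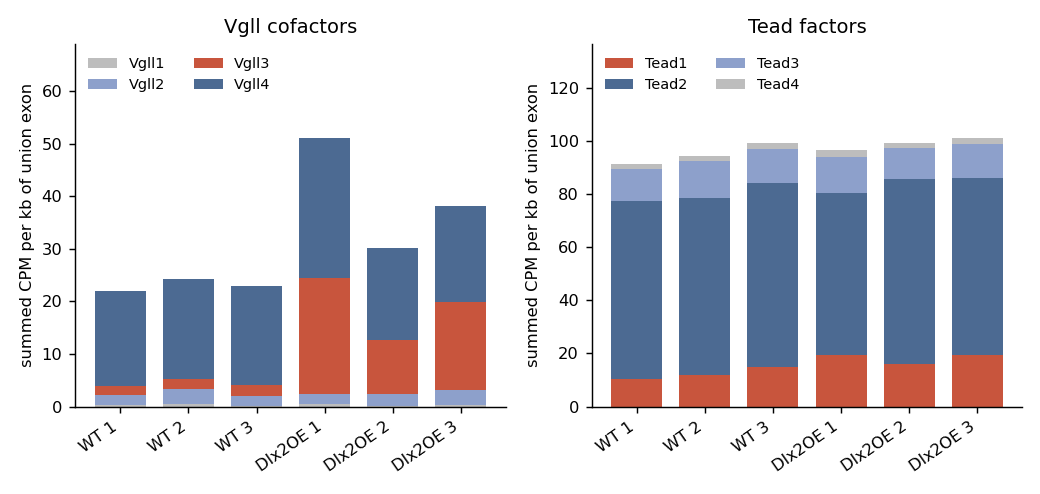
Stacked levels of the 4 Vgll genes (left) and the 4 Tead genes (right) in each sample, in summed CPM per kb of union exon. The Vgll3 segment is 7.27% to 8.54% of the bar in WT and 33.7% to 44.1% in Dlx2OE, and the Tead bars stay between 91.3 and 101.

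Genes whose profile over the 6 samples was closest to that of Vgll3 were sought among 14789 genes with a mean of at least 1 CPM, by the root mean square difference of log2 CPM centred on each gene's WT mean. They were Pou3f1, a POU-domain transcription factor (difference 0.242), Lix1 (0.306), Lef1, a nuclear partner of beta-catenin in Wnt signalling (0.327), Hey2, a Notch-responsive repressor (0.399), and Sstr1, a somatostatin receptor (0.422). Lef1 went from 14 to 131 CPM and Lix1 from 9.12 to 75.5 CPM. Among the Dlx2OE samples each of these genes was highest in sample 1, as was Vgll3. Pou3f1 was lowest in sample 2, as was Vgll3, while Lef1 and Hey2 were lowest in sample 3. Lix1 and Sstr1 were nearly level in samples 2 and 3. The genes were picked for likeness, so a shared profile is no further evidence. For Tead1 the closest genes were Xylt1, Mast4, Auts2, Arhgap32 and Utp14b, at differences of 0.0638 to 0.0738.

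Within 1 Mb of Vgll3 the files list 13 genes, of which 4 were tested and 0 were called, where 3.12% of all tested genes were called, so a count of 0 among so few is near the background. The nearest tested gene, Chmp2b, which encodes an ESCRT-III subunit and lies 253 kb away, had a log2 fold change of -0.02 (adjusted p = 0.955, edgeR). Cadm2, an adhesion molecule of the nervous system, was at -0.38 (adjusted p = 0.479, edgeR). Pou1f1, a pituitary factor 280 kb away, had at most 1 count in any library.

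The genes next to the other members were also read. Of 15 tested neighbours of all members, 0 were called, and 1 passed an adjusted p of 0.05 at any fold change, a threshold that 6.45% of tested genes passed. This was Tulp1, 697 bases from Tead3, which fell by 0.82 on the log2 scale (SE 0.186, adjusted p = 0.0432, edgeR), while Tead3 itself was at -0.02. Atg7, whose annotated end lies 13 bases from Vgll4, was at -0.05 (SE 0.111).

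The Hippo pathway upstream of Yap1 and Wwtr1 was read over 33 listed genes, all of them tested. None passed the call rule in edgeR, and 2 passed an adjusted p of 0.05 at any fold change, both higher in Dlx2OE, where 2.99% of tested genes did so. At an unadjusted p under 0.05, which 29.5% of tested genes had, there were 12, all higher. DESeq2 also called 0 past the fold, and 5 at any fold change, where 12.7% of all genes passed. Amotl2, an angiomotin that binds Yap1 and is itself a Yap1 target, was counted 1991, 2256 and 2760 times in WT and 4983, 3707 and 3994 times in Dlx2OE. It rose by 0.91 on the log2 scale (SE 0.155, adjusted p = 0.0211, edgeR). Frmd6, a FERM-domain activator of the pathway, rose from 96.1 ± 12 to 160.0 ± 15.5 CPM (SD, n = 3), a log2 fold change of 0.73 (SE 0.125, adjusted p = 0.0211, edgeR).

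The core kinases did not pass, and Stk3, Stk4 and Lats1 are named after their values were seen. Lats1 had the largest log2 fold change of them, 0.63 (SE 0.205, adjusted p = 0.0942, edgeR). Its level was 11.2 ± 3.09 CPM in WT and 17.4 ± 0.832 in Dlx2OE, without overlap. Stk3 was at -0.03 and Stk4 at -0.01, with adjusted p of 0.882 and 0.971, and Lats2 was counted 492, 390 and 621 times in WT and 615, 514 and 500 times in Dlx2OE. Lats2 was at 0.16 (SE 0.184, adjusted p = 0.581, edgeR) and Ptpn14, a phosphatase that binds Yap1, at 0.40 (SE 0.183, adjusted p = 0.185). In all, 27 of the 33 estimates were positive, with a median of 0.24. With the length and GC correction 21 were positive and the median was 0.08. Without WT sample 1, or without WT sample 2, 0 of the 33 passed the adjusted p in edgeR, and without WT sample 3, 9 did. Without Dlx2OE sample 2 or 3, 1 passed.

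A 22-gene signature of YAP/TAZ-TEAD target genes was read next, of which 21 were tested and 4 (Amotl2, Lats2, Ptpn14 and Fjx1) also stand in the Hippo list. In the edgeR fit 3 were called, all lower in Dlx2OE, where 1.62% of tested genes were called lower. Ccn2 and F3 were known to be lower from the earlier results, so these are no independent evidence of a direction. F3, tissue factor, which starts coagulation, was counted 1075, 1453 and 1381 times in WT and 263, 267 and 242 times in Dlx2OE. It fell 4.91-fold (log2 fold change -2.30, SE 0.136, adjusted p = 0.00089, edgeR), with no overlap between genotypes.

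Ccn2, a secreted matricellular protein and a standard readout of Yap1 activity, was counted 366, 372 and 477 times in WT and 148, 189 and 167 times in Dlx2OE. It fell by 1.22 on the log2 scale (SE 0.178, adjusted p = 0.0136, edgeR). Its adjusted p was 0.0657 without WT sample 2 and 0.0514 without Dlx2OE sample 2. The other called gene was Foxf2, a forkhead factor of the palatal mesenchyme, named here after its values were seen, with 71.0, 70.9 and 112 CPM in WT and 14.6, 27.7 and 43.4 CPM in Dlx2OE (log2 fold change -1.57, SE 0.366, adjusted p = 0.0454, edgeR).

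Other target genes went other ways. At any fold change 1 of the list passed as higher, Amotl2, and 5 as lower, adding Ccdc80 (log2 fold change -0.73, adjusted p = 0.0136, edgeR) and Tgfb2, a ligand named after its values were seen (-0.61, adjusted p = 0.0309), to the called genes. Of all tested genes 2.99% passed as higher and 3.46% as lower. Without WT sample 2, or without Dlx2OE sample 2, 1 gene of the list passed as lower. Ccn1, the closest relative of Ccn2 among the standard readouts, was counted 672, 698 and 892 times in WT and 616, 865 and 584 times in Dlx2OE, overlapping, and was at -0.10 (SE 0.155, adjusted p = 0.702, edgeR). Ankrd1, a cardiac and muscle ankyrin-repeat protein, had 4 to 20 counts in every library and was not tested. Of 21 estimates 13 were negative, and the median was -0.06. With library size alone the split was 11 positive and 10 negative.

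**Figure D4:**
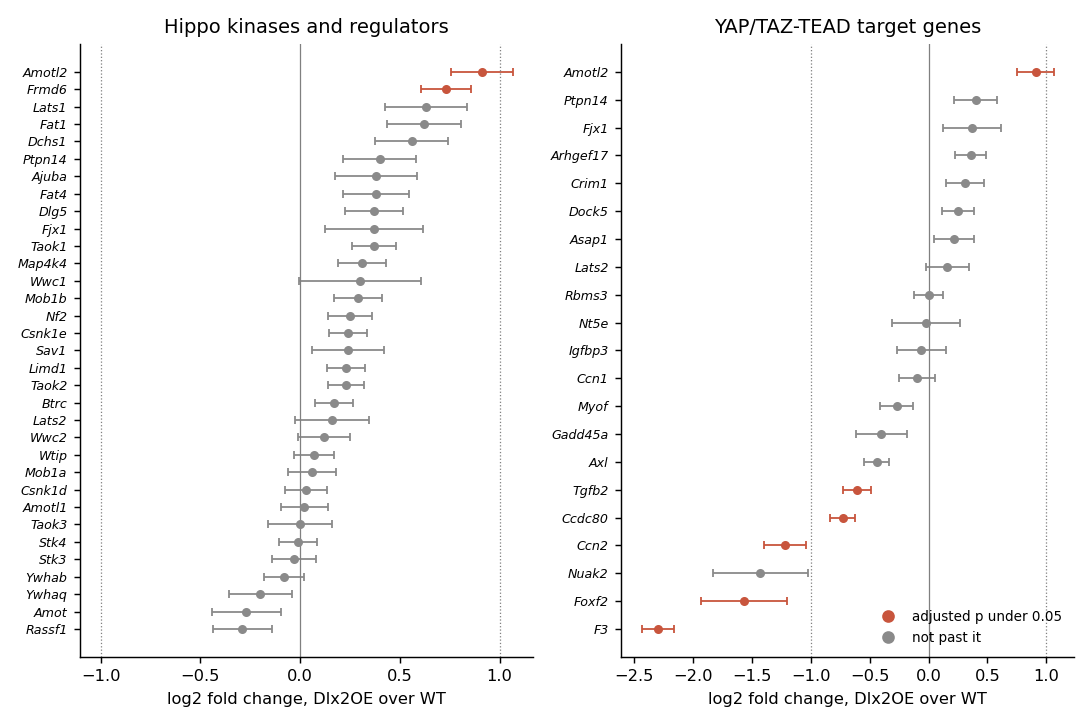
Log2 fold changes of Dlx2OE over WT with standard errors for the Hippo list (left) and the target list (right), red where the adjusted p from edgeR is under 0.05, dotted lines at 1 and -1. Of the Hippo list 2 genes are red, both positive, and of the target list 1 positive and 5 negative genes.

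The level of the other cell types in the tissue was read in the same libraries, since fewer cells of a type and less RNA per cell cannot be told apart in bulk RNA. Crest mesenchyme markers were high in all samples, with Prrx1, Pdgfra and Barx1 at 555, 371 and 241 CPM in WT. Their sum was 2086 to 2443 CPM in WT and 2525 to 2999 in Dlx2OE. Of 16 tested, Twist1, Twist2 and Alx4 passed the adjusted p in edgeR as higher, Twist1 and Alx4 being named after their values were seen. Pax9, which palate growth needs, passed as lower (log2 fold change -1.10, adjusted p = 0.0141, edgeR). Among all tested genes, 2.99% passed as higher and 3.46% as lower. Of the 16 estimates 8 were positive and 8 negative, with a median of 0.02.

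Skeletal muscle precursors are a tissue in which Vgll2 and Vgll3 are known. The summed level of 24 muscle markers was 271.2, 561.1 and 299.1 CPM in WT and 137.3, 215.5 and 331.1 in Dlx2OE, overlapping. The most abundant were Actc1 and Myh3, at 72.2 ± 34.6 and 67.8 ± 27.7 CPM in WT, and Ttn, at 35.3 ± 9.89. None of the 23 tested passed the adjusted p in edgeR. At an unadjusted p under 0.05 there were 5, all lower, where 29.5% of all tested genes had such a p. Of the 23 estimates 22 were negative, with a median of -0.75. The part of these cells in the levels of Vgll3 and Vgll2 was not tested. Vgll3 was highest in Dlx2OE sample 1, the library with the lowest muscle sum.

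Epithelial markers, led by Dsp, Krt14 and Epcam, summed to 1262 to 2145 CPM in WT and to 2770, 910.1 and 971.9 in Dlx2OE. Krt8 (log2 fold change -2.11, adjusted p = 0.00939), Krt18 (-1.85, adjusted p = 0.0233) and Cldn7, named after its values were seen, fell by the edgeR test. These 3 of 18 were called lower, where 1.62% of all tested genes were. Of the 18 epithelial estimates 14 were negative and 4 positive. The positive ones were the basal keratinocyte genes Krt5 (1.91, SE 0.572, adjusted p = 0.0792, edgeR), Krt15, Krt14 and Trp63, named after their values were seen. Krt15, Krt14 and Trp63 had adjusted p of 0.611, 0.712 and 0.806 (edgeR), and each was above the WT range in Dlx2OE sample 1 alone. Vgll3 was at 156 CPM in the Dlx2OE library with the highest epithelial sum and at 72.3 and 119 CPM in the 2 with the lowest. Neuronal markers, led by Tubb3, Dcx and Elavl4 in WT, summed to 111.3, 416.5 and 239.4 CPM in WT and 222.8, 798.1 and 1813 in Dlx2OE. All 12 were above 0 in log2 fold change with a median of 1.87, and 0 passed the adjusted p in edgeR. At an unadjusted p under 0.05 there were 4, where 29.5% of all tested genes had such a p. Dlx2OE sample 1 had a neuronal sum inside the WT range, and the highest Vgll3. The part of epithelial and neuronal cells in the Vgll3 level was not tested.

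The red blood cell and macrophage markers had lower sums in every Dlx2OE library. The erythroid sum, led by Hbb-y, Hba-x and Hba-a1, was 3326 to 4442 CPM in WT and 2006 to 2597 in Dlx2OE, and macrophage markers, led by Csf1r, Mrc1 and C1qc, summed to 93.07 to 104.7 and 58.46 to 62.26. C1qc and C1qa were called lower (log2 fold changes -1.12 and -1.11), and so was Hba-a2 (-2.13, adjusted p = 0.00552, edgeR). Called lower were thus 2 of 9 macrophage and 1 of 10 erythroid markers, against 1.62% of all tested genes. Endothelial markers, with Cdh5, Pecam1 and Kdr the most abundant, overlapped at 400.7 to 564.8 and 289.2 to 435.8. Of 12, 1 passed the adjusted p as lower, where 3.46% of all tested genes did. It was Emcn, named after its values were seen (log2 fold change -0.97, adjusted p = 0.0464, edgeR). All 12 endothelial estimates were negative, with a median of -0.40. An unadjusted p under 0.05 was found for 4, and for 29.5% of all tested genes. The part of these cells in the Vgll3 result was not tested. The sums for macrophages and erythroid cells separate the genotypes as Vgll3 does, in the opposite direction. The crest mesenchyme sum separates them in the same direction as Vgll3, by far less, while its estimates were split 8 positive to 8 negative.

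**Figure D5:**
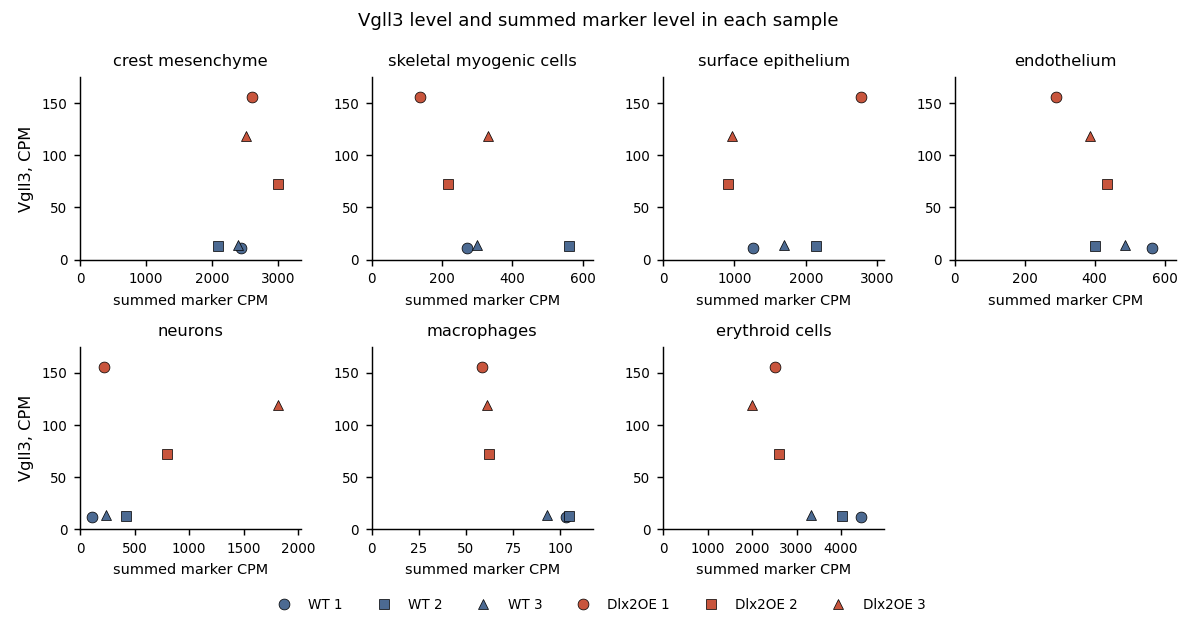
Vgll3 level (CPM, vertical axis) against the summed CPM of each of 7 marker lists (horizontal axis) in the 6 samples, WT in blue and Dlx2OE in red, with a symbol for each replicate number. Vgll3 is at 72.3 to 156 CPM in Dlx2OE over marker sums for muscle, epithelium, neurons and endothelium that overlap the WT samples, and the crest mesenchyme, macrophage and erythroid sums do not overlap between genotypes.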

How the data were processed

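RNA from E12.5 maxillary prominences of 3 WT and 3 Dlx2OE samples was made into libraries with a kit that does not mark strand, and sequenced. The authors mapped reads to mm10 with STAR 2.7.3a, counted them per gene with HTSeq 0.12.4 in union mode and deposited raw counts without normalization. The annotation release and strand setting are not given in the sources used here. Of 53801 genes, 53706 matched GENCODE M21 and 95 did not. Between 5.03% and 14.7% of reads per library fell outside genes, and these summary lines were left out of library sizes.

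The test was that of edgeR 4.0.16 under R 4.3.3 (TMM scaling, filterByExpr with a minimum count of 10, quasi-likelihood F test on genotype, Benjamini-Hochberg adjustment over 17514 genes). DESeq2 1.42.0 was an alternative. A call required an adjusted p below 0.05 together with an absolute log2 fold change over 1. The fit was tested on simulated data with a log2 fold change of 2 in 200 genes, of which it recovered 83.5%. Log2 CPM used a prior count of 2. The floor of 3 counts equals 0.0955 to 0.111 CPM and covers counting error only. No 2 libraries agreed within sampling noise.

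CPM per kb replaced the planned TPM, after the data were seen, because a 57-base gene, Gm23935, took 41.6% of TPM in Dlx2OE sample 3. TPM left all 10 genes in the same order. Within a sample it could not do otherwise, since both scales divide by the same lengths. The 10 genes, the lists and the tests were chosen with earlier results of these data known. Genes named in the text are the 10, Dlx2, 6 fixed target genes, up to 4 genes of smallest p from each pathway list, the 3 most abundant and up to 2 called markers of each cell type, the 5 nearest profiles of Vgll3 and Tead1, and neighbouring genes. Others are said to be named after their values were seen. Sequences are from RefSeq. The result of 1 further marker list is not reported here.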

Additional observations from a re-analysis of the deposited data

Results flagged for a closer look

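Reads outside annotated genes made up 14.7% of the reads of Dlx2OE sample 3, against 5.03% to 5.43% in the WT samples and 5.75% and 7.81% in the other Dlx2OE samples. They enter no comparison of genes, and they were noted because the share stands above that of every WT library. Without this library the log2 fold change of Vgll3 was 3.18 and that of Tead1 was 0.54, and 4 genes of the target list passed the adjusted p at any fold change against 6 with it, a comparison chosen after seeing the data. Leaving out each library in turn gave 1 (without WT sample 2) to 7 (without Dlx2OE sample 1), with 2 without WT sample 1 and 2 without Dlx2OE sample 2, so this library did not move that count most. Groups of 3 samples are too small for a test of single outlying samples.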

How the results depend on the processing

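Vgll3 was called under all 16 alternative fits, at 2.91 to 3.45, and no other of the 10 genes was called in any. Vgll3 was chosen with its difference known, so its calls describe how steady the estimate was and are no independent evidence. With the length and GC correction Tead1 was at 0.33, Tead2 at -0.16 and Tead3 at -0.22. DESeq2 put 2 of the 10 past its adjusted p, Vgll3 and Tead1, where 12.7% of all genes passed. The number of genes called, 546, was 887 with DESeq2 at its default filtering, 894 with DESeq2 filtering tuned to 0.05, 1003 without a filter on low counts and 1130 at any fold change. The version tuned to 0.05 was run first by mistake for the planned default and was kept after both counts had been seen. Leaving out 1 library gave 74 (without WT sample 2) to 1173 calls (without Dlx2OE sample 1), with 153 without WT sample 1, 187 without Dlx2OE sample 2, of which 69.0% were higher against 262 of 546, and 254 without Dlx2OE sample 3. The cause was not tested. Hippo genes called were 0, 2 at any fold change, and 0 to 1 with 1 library left out (1 without WT sample 3 and 1 without Dlx2OE sample 2). Target genes called were 3, 6 at any fold change, and 1 (without WT sample 2) to 4 with 1 library left out. Ccn1 ranged from -0.24 to 0.01 with 1 library left out and changed sign, to 0.07 with the length and GC correction, to 0.07 with that and the replicate block, and to 0.01 without WT sample 3, never past the threshold. Amotl2, Frmd6 and Ccdc80 each lost the adjusted p in 3 of 6 fits without 1 library, with highest values of 0.104, 0.0916 and 0.0657, and F3 kept it in all 16. The ratio of summed Vgll to summed Yap1 and Wwtr1 was 0.751 in WT and 0.882 in Dlx2OE with longest-transcript lengths, against 0.499 and 0.74.

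Replicate numbers are shared by the genotypes but are not said by the labels to mark a shared animal or litter. Deviations of same-numbered samples from their group means correlated at -0.0718, -0.211 and 0.0731, so the numbers were not treated as pairs. With a replicate block 398 genes were called, Vgll3 was at 3.13 and Tead1 at 0.59, and with the block and the length and GC correction 302 were called. The block changed no call among the 10 genes or in either pathway list past the fold. Depth limits Vgll1 most, with 14 to 36 counts a library.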
